A study of Mus musculus with 90 samples.

Results

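The core clock genes are 10 genes that form the transcription loop of the circadian clock: *Arntl* (ENSMUSG00000055116, also called *Bmal1*), *Clock* (ENSMUSG00000029238), *Npas2* (ENSMUSG00000026077), *Per1* (ENSMUSG00000020893), *Per2* (ENSMUSG00000055866), *Per3* (ENSMUSG00000028957), *Cry1* (ENSMUSG00000020038), *Cry2* (ENSMUSG00000068742), *Nr1d1* (ENSMUSG00000020889) and *Nr1d2* (ENSMUSG00000021775). They were chosen by symbol, are 10 of the 27654 genes in the tables, and all 10 had counts in each of the 4 tables. In this loop the protein of *Arntl* pairs with CLOCK, or with its relative NPAS2, and switches on the *Per*, *Cry* and *Nr1d* genes, while PER and CRY proteins block that pair. The *Nr1d* genes encode the REV-ERB nuclear receptors, which repress *Arntl*, *Npas2* and *Clock*. In liver the loop takes timing cues from meals and from glucocorticoids, and *Per1* is a known target of the glucocorticoid receptor (GR, gene *Nr3c1*).

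Poly(A) RNA of whole mouse liver was sequenced in 90 libraries from 3 experiments, 1 animal per library, all from male C57BL/6J mice on chow, aged 12 weeks when single housing before the diets, or handling before the injections, began. The time series (78 libraries) crossed 2 genotypes with 2 diets at 6 time points, every 4 h from ZT0 (lights on) through ZT12 (lights off) to ZT20. GRLKO mice carried GRfl/fl with Alb-Cre and their WT controls carried GRfl/fl alone. Caloric restriction was stepped down to 40% less food over 4 weeks and then kept, with the meal at ZT12, and mice on the control diet were fed at night only in the last week. A separate diet comparison set 3 WT mice on caloric restriction against 3 WT mice on the control diet at ZT12; the treatment labels of these controls say night-restricted feeding, and their titles say AL. A hormone experiment set 3 WT mice given corticosterone (CORT) by daily injection for 7 days against 3 WT control mice, all fed at night only and taken at ZT12; the methods describe vehicle injections for controls, and the labels of these mice name only night-restricted feeding. Every group held 3 libraries, except 4 in the control-diet WT groups at ZT8, ZT12, ZT16 and ZT20 and in the control-diet GRLKO groups at ZT8 and ZT12. Total estimated counts per library ran from 14235473 to 20788575 in the time series on caloric restriction, from 10057544 to 17089004 in the time series on the control diet, from 36442195 to 39492146 in the diet comparison and from 13739631 to 16077943 in the CORT experiment. Levels are given as CPM, counts scaled to library size with TMM factors computed within a table, and differences as log2 fold changes. In the time series each diet has its own table, so diet and table cannot be told apart there, and levels set across tables carry that limit. Alb-Cre deletes in hepatocytes, so other liver cells of GRLKO mice keep GR. In bulk RNA fewer cells of a type and less RNA per cell cannot be told apart.

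The genotype label held in every library. *Nr3c1* lay between 70.5 and 113 CPM in the WT libraries on caloric restriction and between 21.6 and 32.2 CPM in the GRLKO libraries on that diet. On the control diet it lay between 72.8 and 117 CPM in WT and between 16.2 and 28.8 CPM in GRLKO. No GRLKO library reached the lowest WT library. The log2 fold change of *Nr3c1* (GRLKO against WT, edgeR) ran from -2.06 at ZT8 on the control diet to -1.70 at ZT12 on caloric restriction, and it was called (Benjamini-Hochberg adjusted p under 0.05 over all genes tested) in 12 of 12 comparisons of the genotypes. *Fkbp5*, which encodes a co-chaperone of GR and is a GR target, was at 333, 321 and 392 CPM in the 3 WT libraries on caloric restriction at ZT12 and at 57.4, 49.2 and 40.7 CPM in the GRLKO libraries beside them. Its log2 difference there was -2.84 (SE 0.15, adjusted p = 0.000144). *Fkbp5* was also called at ZT8 and ZT16 on caloric restriction and at ZT12 and ZT16 on the control diet. It was not called at the other times, such as ZT8 on the control diet (log2 -0.42, adjusted p = 0.568). With CORT it rose, from 52.9, 41.6 and 19.8 to 217, 292 and 199 CPM, a log2 difference of 2.63 (SE 0.35, adjusted p = 0.00797).

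The tissue label was read against marker lists. All 7 hepatocyte markers had counts, with a summed level of 73843 to 179099.7 CPM per library and *Alb* as the most abundant. Lists for other cells of the liver summed to 49.4 to 381 CPM (Kupffer and myeloid cells, 8 genes), 72.8 to 239 CPM (endothelial cells, 6 genes), 80.9 to 451 CPM (stellate cells, 6 genes) and 22.3 to 152 CPM (cholangiocytes, 5 genes). Blood lists summed to 207 to 3859 CPM (erythrocytes, 6 genes), 1.96 to 24.2 CPM (lymphocytes, 6 genes) and 0 to 3.96 CPM (neutrophils, 5 genes). The exocrine pancreas list (5 genes, *Pnlip* the most abundant) stood at 479.8 CPM in WT replicate 3 at ZT12 on caloric restriction and at 223 CPM in WT replicate 2 at ZT16 on the control diet, and its median over libraries was 0.143 CPM. The adipocyte list (4 genes, *Cfd* the most abundant, *Plin1* at 0) reached 49.0 CPM in the control-diet GRLKO libraries and at most 1.54 CPM in the control-diet WT libraries. In the GRLKO group of that highest library, at ZT20, *Adipoq*, *Plin1* and *Lep* were at 0 and the sum is *Cfd* alone. The part of this list in the control-diet differences between the genotypes was not tested.

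On the control diet the WT libraries ran through the members in sequence, with *Nr1d1* high in the light phase, the *Per* genes high around lights off, and *Arntl*, *Clock* and *Npas2* high near the end of the night and the start of the day. *Arntl*, the activator without which the loop stops, averaged 29.7 ± 8.20 at ZT0, 24.0 ± 5.49 at ZT4, 0.637 ± 0.650 at ZT8, 0.671 ± 0.600 at ZT12, 11.6 ± 0.967 at ZT16 and 20.1 ± 5.08 at ZT20 CPM (SD, here and below over 3 or 4 libraries). The order from high to low was ZT0, ZT4, ZT20, ZT16, ZT12 and ZT8, and libraries of neighbours in that order overlapped for ZT0 with ZT4, ZT4 with ZT20 and ZT12 with ZT8. *Npas2*, which can stand in for CLOCK, averaged 12.7 ± 4.57 at ZT0 and 0.0498 ± 0.0618 at ZT16 CPM, and every library from ZT8 to ZT16 was under every library at ZT20, ZT0 and ZT4. *Clock* was erratic: its WT libraries held 0, 2.93, 0 and 0 CPM at ZT12, 6.86, 20.1, 13.1 and 11.05 CPM at ZT20 and 20.02, 9.03 and 1.72 CPM at ZT4, so that single libraries of a time point spanned much of the gene's daily range. In GRLKO mice on that diet it was at 7.41, 0, 0 and 3.31 CPM at ZT8 and 0, 2.14, 0 and 0 CPM at ZT12, again with 0 beside other values. The counts are estimates that Salmon makes per transcript, and the part of that step in the 0 values of *Clock* was not tested, which bears on each level and call of this gene.

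Of the repressors, *Per1*, which cues from outside the loop can induce directly, averaged 3.14 ± 0.686 at ZT0, 2.55 ± 1.24 at ZT4, 33.0 ± 9.77 at ZT8, 71.3 ± 15.3 at ZT12, 34.1 ± 5.17 at ZT16 and 21.1 ± 12.3 at ZT20 CPM in WT mice on the control diet. Its order from high to low was ZT12, ZT16, ZT8, ZT20, ZT0 and ZT4, with overlapping libraries for ZT16 with ZT8, ZT8 with ZT20 and ZT0 with ZT4. *Cry1*, the late repressor of the loop, averaged 25.6 ± 1.41 at ZT0, 13.7 ± 2.73 at ZT4, 5.09 ± 0.999 at ZT8, 13.5 ± 2.89 at ZT12, 32.7 ± 2.15 at ZT16 and 45.3 ± 3.53 at ZT20 CPM. Sorted by level its time points ran ZT20, ZT16, ZT0, ZT4, ZT12 and ZT8, and the only neighbours whose libraries overlapped were ZT4 with ZT12. The other repressors were highest at ZT12 or ZT16. *Per2* averaged 99.99 ± 18.1 at ZT16 and 10.1 ± 6.41 at ZT4 CPM and *Per3* 64.1 ± 4.93 at ZT12 and 3.57 ± 0.484 at ZT0 CPM. *Cry2*, the member with the smallest fitted swing on the log2 scale, averaged 57.9 ± 5.21 at ZT12 and 19.99 ± 1.22 at ZT0 CPM.

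The REV-ERB genes led the sequence. *Nr1d1* averaged 3.86 ± 0.783 at ZT0, 119 ± 11.2 at ZT4, 164 ± 15.8 at ZT8, 32.2 ± 8.996 at ZT12, 9.34 ± 1.97 at ZT16 and 2.52 ± 1.17 at ZT20 CPM in WT mice on the control diet. By level the time points sort as ZT8, ZT4, ZT12, ZT16, ZT0 and ZT20, and only libraries of ZT0 with ZT20 overlapped. *Nr1d2*, its close relative, averaged 138 ± 10.97 at ZT8 and 11.3 ± 2.48 at ZT0 CPM. A 24 h cosine fitted to log2 CPM put the WT control-diet peaks at 7.75 h for *Nr1d1* and 9.61 h for *Nr1d2*. The repressors followed, at 12.3 h for both *Per3* and *Cry2*, 13.3 h for *Per1*, 15.1 h for *Per2* and 19.7 h for *Cry1*. The activators came last, at 22.3 h for *Arntl*, 22.5 h for *Clock* and 0.402 h for *Npas2*. The fitted amplitude (mean to peak, log2) ran from 0.62 for *Cry2* (SE 0.08) to 3.57 for *Npas2* (SE 0.24).

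A 24 h rhythm was called by JTK_CYCLE, a rank test against cosine shapes, for 9 of 10 members in WT mice on the control diet (background: 24.1% of all genes tested) and 10 of 10 in WT mice on caloric restriction (20.8%). In GRLKO mice it was called for 9 of 10 on the control diet (20.9%) and 9 of 10 on caloric restriction (19%). The 9 were the same genes in each of the 3 series, all members but *Clock*. Limma's F test for a 24 h cosine called *Clock* in all 3. Under that F test the count over all genes moved in 4 of 4 series. The shares above are those of JTK_CYCLE and are no background for it. By JTK_CYCLE *Clock* had an adjusted p of 0.0563 in WT on the control diet. In GRLKO *Clock* had 0.178 on the control diet and 0.296 on caloric restriction. Its call in WT on caloric restriction (adjusted p = 0.0345) was lost without 1 of 8 libraries in turn (replicate 3 at ZT0, replicates 2 and 3 at ZT12 and at ZT16, any replicate at ZT20; adjusted p up to 0.0815). In WT on the control diet a call appeared without replicate 3 at ZT0 (0.0167), replicate 1 at ZT4 (0.0454), replicate 3 at ZT4 (0.0288) or replicate 2 at ZT16 (0.0314).

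**Figure D1:**
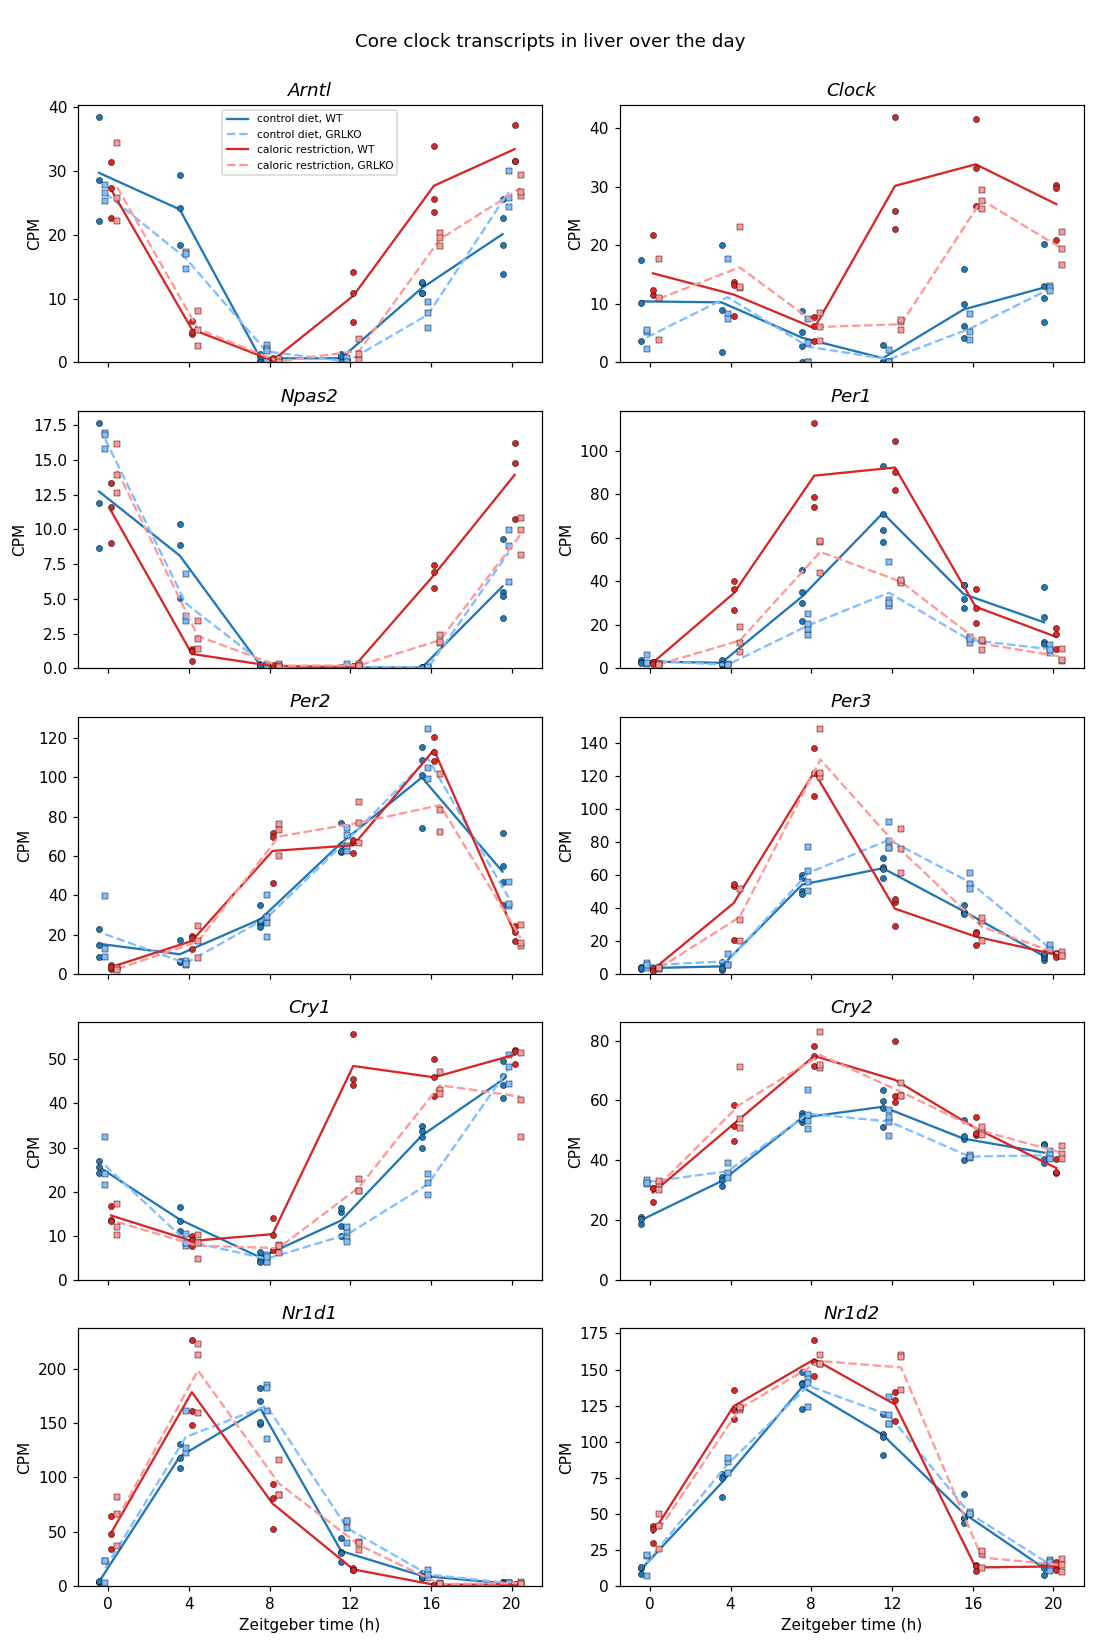
Levels of the 10 core clock genes (CPM, linear axes from 0) against zeitgeber time (h) in the 4 time series, with points for single libraries (circles WT, squares GRLKO, set slightly apart sideways) and lines through group means. The mean of *Per1* in GRLKO lies under that in WT at 11 of 12 pairs of groups, and *Arntl* in WT at ZT12 averages 10.4 CPM on caloric restriction and 0.671 CPM on the control diet.

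On caloric restriction the sequence ran earlier than on the control diet, in both genotypes. In WT mice on caloric restriction *Arntl* averaged 27.04 ± 4.39 at ZT0, 5.20 ± 1.11 at ZT4, 0.311 ± 0.360 at ZT8, 10.4 ± 3.93 at ZT12, 27.7 ± 5.45 at ZT16 and 33.4 ± 3.22 at ZT20 CPM. It was already at 10.4 CPM at ZT12, where the control diet gave 0.671 CPM, and was down to 5.20 CPM at ZT4, where the control diet gave 24.0 CPM. *Nr1d1*, its repressor, averaged 48.9 ± 15.2 at ZT0, 179 ± 41.9 at ZT4, 76.0 ± 21.2 at ZT8, 15.3 ± 1.18 at ZT12, 1.07 ± 0.127 at ZT16 and 1.30 ± 0.425 at ZT20 CPM. From high to low the *Nr1d1* means ran ZT4, ZT8, ZT0, ZT12, ZT20 and ZT16, with overlapping libraries for ZT8 with ZT0 and ZT20 with ZT16. The highest mean thus came at ZT4, and at ZT8 on the control diet. At ZT0 the *Nr1d1* libraries held 47.6, 64.8 and 34.5 CPM on caloric restriction and 3.74, 3.14 and 4.69 CPM on the control diet, with no overlap.

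Several repressors were higher on caloric restriction at single time points, which alone does not tell an earlier rhythm from a higher level. *Per1* libraries at ZT4 held 40.1, 36.4 and 26.7 CPM on caloric restriction and 3.93, 1.53 and 2.20 CPM on the control diet in WT mice. *Per3* at ZT4 held 53.6, 54.7 and 20.8 CPM against 7.55, 2.64 and 3.98 CPM. *Cry1* at ZT12 held 55.7, 44.1 and 45.6 CPM against 15.3, 16.4, 10.1 and 12.2 CPM. In each of these 3 pairs every library on caloric restriction was above every library on the control diet. *Per2* at ZT8 held 72.0, 69.6 and 46.3 CPM against 25.6, 34.97, 24.1 and 27.1 CPM, again without overlap. *Npas2* at ZT16 held 5.77, 7.45 and 6.93 CPM on caloric restriction and 0, 0.127, 0 and 0.0716 CPM on the control diet, where it was close to undetected. For *Nr1d2*, the libraries at ZT4 held 122, 136 and 116 CPM against 77.4, 61.8 and 75.0 CPM. The libraries compared here come from different tables, and the time points shown are a selection. The share of all genes that separate in this way, here and for *Nr1d1* at ZT0 above, was not counted. Marker lists also differed without overlap in WT mice at ZT12. The hepatocyte list summed to 173251 to 179100 CPM on caloric restriction against 90453 to 107217 CPM on the control diet. The endothelial list ran from 149 to 180 against 72.8 to 86.9 CPM and the stellate list from 212 to 259 against 80.9 to 116 CPM. The neutrophil list was lower, at 0 to 0.0565 against 0.159 to 0.375 CPM. The hepatocyte list was also higher without overlap at ZT4, at 112056 to 142473 against 101673 to 104475 CPM. It stood at 118643 to 145411 against 102184 to 106850 CPM at ZT8 and 136983 to 144411 against 92802 to 103382 CPM at ZT16. At ZT16 the endothelial list (156 to 192 against 105 to 109 CPM) and the Kupffer list (128 to 170 against 49.4 to 122 CPM) were higher too. The part of these lists in these levels was not tested.

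Between the diets the fitted peak (caloric restriction minus control diet, negative meaning earlier) was earlier for all 10 members in WT mice, with a median of -2.69 h and a range from -5.30 h for *Clock* to -2.19 h for *Cry2*. In GRLKO mice it was also earlier for all 10, with a median of -2.32 h and a range from -3.04 h for *Clock* to -1.46 h for *Cry2*. Peaks were fitted for the members only, so no share over all genes stands beside these counts. The paper reports a phase advance of the rhythmic transcripts on caloric restriction, with core clock genes among them. By role, WT shifts were -2.72 h (SE 0.794) for *Arntl* and -3.28 h (SE 0.397) for *Npas2* among the activators. They were -2.82 h (SE 0.591) for *Per1*, -2.50 h (SE 0.547) for *Per2*, -2.66 h (SE 0.667) for *Per3* and -3.23 h (SE 0.454) for *Cry1* among the repressors, and for the REV-ERB genes -2.54 h (SE 0.384) for *Nr1d1* and -2.42 h (SE 0.4004) for *Nr1d2*. The amplitude was larger on caloric restriction for 5 members and smaller for 5 in WT. A limma test of the cosine terms called a rhythm difference between the diets for 10 of 10 members in WT mice (26.6% of all genes tested) and for 8 of 10 in GRLKO mice (18.9%). The exceptions were *Clock* (adjusted p = 0.202) and *Cry2* (adjusted p = 0.0719). In GRLKO *Cry2* was called without replicate 1 (0.0481) or 3 (0.0399) at ZT20 on caloric restriction or without replicate 1 at ZT8 on the control diet (0.0360). With time as a factor in place of the cosine, limma called *Cry2* too (adjusted p = 0.00143; 27.2% of all genes tested).

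**Figure D2:**
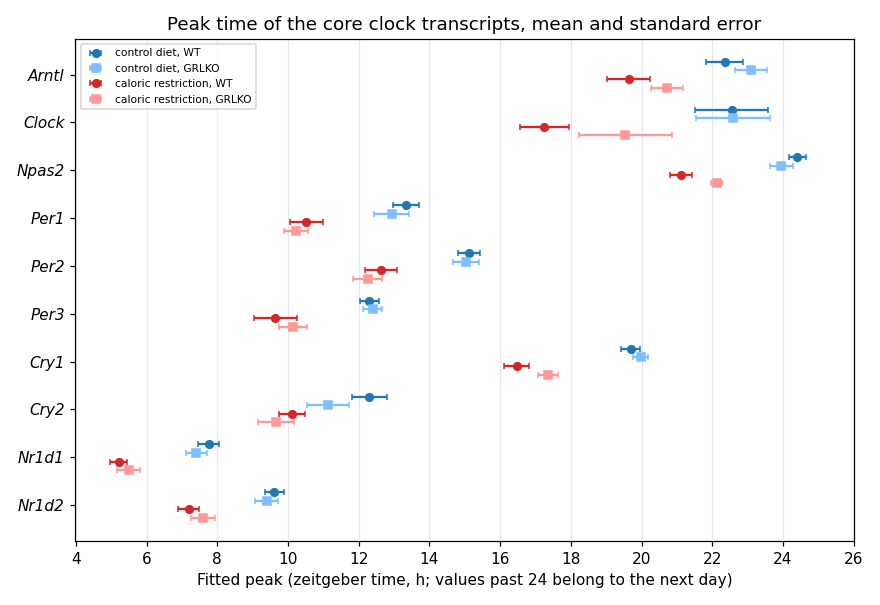
Fitted peak time (zeitgeber time, h, horizontal axis, with values past 24 belonging to the next day) of each core clock gene in the 4 time series, with bars for the SE of the fit. For all 10 genes and both genotypes the peak on caloric restriction stands to the left of the peak on the control diet.

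The separate diet comparison at ZT12 holds both diets in 1 table, and there most members differed. *Cry1*, a repressor, was at 59.2, 56.8 and 68.7 CPM in the 3 mice on caloric restriction and at 8.21, 10.6 and 10.1 CPM in the 3 controls. *Nr1d1* was at 5.69, 11.8 and 13.3 CPM against 49.1, 34.4 and 51.7 CPM. *Per3*, another repressor, was at 26.6, 27.1 and 17.9 CPM against 72.9, 68.7 and 60.4 CPM. *Cry1* was thus high and *Nr1d1* and *Per3* low in all 3 restricted mice, with no overlap. *Per1* was at 86.4, 118 and 139 CPM against 55.9, 44.9 and 68.1 CPM and *Cry2* at 60.7, 72.1 and 65.1 CPM against 48.0, 43.8 and 47.3 CPM, both without overlap. Each library was also placed by its distance, over the 10 members in log2 CPM, to the WT control-diet means of the time series. The 3 controls lay nearest to ZT8, ZT12 and ZT8, and all 3 restricted libraries lay nearest to ZT16, as did all 3 WT libraries on caloric restriction at ZT12 in the time series. The distance crosses tables and includes *Clock*, with its erratic values, and members close to undetected. Control replicate 1 lay at 2.83 from ZT8 and 3.36 from ZT12, and control replicate 3 at 4.46 and 5.55. The part of *Clock* and of sequencing depth in this placement was not tested.

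By edgeR, 7 of the 9 members that passed the count filter were called in that comparison, against 47.1% of all genes tested. *Npas2*, at most 0.273 CPM, did not pass. On the log2 scale, among the activators *Arntl* rose by 4.57 (SE 0.63, adjusted p = 0.00141) and *Clock* by 3.21 (SE 0.83, adjusted p = 0.0164). *Arntl* was close to undetected in the controls, and without 1 library in turn its log2 fold change ran from 4.00 to 5.06, called each time. Of the repressors *Cry1* rose by 2.67 (SE 0.12, adjusted p = 4.93e-05), *Per1* by 1.02 (SE 0.20, adjusted p = 0.00619) and *Cry2* by 0.51 (SE 0.08, adjusted p = 0.0028). The log2 fold change was -1.5 (SE 0.16, adjusted p = 0.000622) for *Per3* and -2.13 (SE 0.31, adjusted p = 0.00169) for *Nr1d1*, the members that fell. The members not called were *Per2* (0.16, SE 0.10, adjusted p = 0.224) and *Nr1d2* (-0.19, SE 0.16, adjusted p = 0.384). The median log2 fold change was 0.51 over the members tested and -1.8e-06 over all genes tested. *Clock*, with 0 in 1 control and not in the others, at 2.50, 0 and 5.73 CPM in the controls and 21.5, 24.9 and 29.97 CPM with restriction, was not called without control replicate 1 (log2 3.15, adjusted p = 0.0626) or by DESeq2 (log2 3.22, adjusted p = 0.118). *Per2* was called in the diet comparison without its caloric restriction replicate 3 (log2 0.27, adjusted p = 0.031). Between the WT ZT12 libraries of the time series, which come from different tables, *Per1* (log2 0.35, adjusted p = 0.121) and *Cry2* (log2 0.19, adjusted p = 0.26) were not called. There the log2 fold changes of *Per3* (-0.71) and *Nr1d1* (-1.09) were smaller and that of *Clock* (5.23) larger, each by more than 1.5 times, all still called; *Arntl* stood at 3.89 and *Cry1* at 1.82.

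Marker lists differed between the diets in that comparison, with no overlap for 6 of 10 lists. The hepatocyte list (7 of 7 genes with counts, *Alb* the most abundant) stood at 159962, 162110.4 and 163435 CPM against 95771, 96955 and 100642 CPM in the controls. The endothelial list (6 of 6, *Clec4g* the most abundant) stood at 194, 194 and 222 CPM against 116, 149 and 153 CPM, and the stellate list (6 of 6, *Dcn* the most abundant) at 283, 249 and 286 CPM against 199, 212 and 168 CPM. These 3 lists were higher with restriction, and the next 3 were lower. The lymphocyte list (*Ptprc* the most abundant of 6 genes, *Trac* at 0 in the controls) stood at 4.69, 5.80 and 5.40 CPM against 6.64, 8.10 and 6.73 CPM. The neutrophil list (*S100a9* the most abundant of 5 genes, *Ly6g* at 0 on both diets and *Retnlg* with restriction) stood at 0.171, 0.286 and 0.273 CPM against 0.324, 0.679 and 0.634 CPM. The adipocyte list (*Plin1* and *Lep* of 4 genes at 0 on both diets and *Cfd*, the most abundant over all libraries, with restriction) stood at 0.0569, 0 and 0.0273 CPM against 0.275, 0.287 and 0.158 CPM. The part of these cells in the differences of the clock genes was not tested.

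The comparison of the genotypes at each time asks what GR in hepatocytes adds to the clock genes on a given diet. On caloric restriction the members differed most at ZT12. *Arntl*, the activator, was at 14.1, 6.27 and 10.9 CPM in the 3 WT libraries and 0.462, 1.36 and 3.69 CPM in the 3 GRLKO libraries. *Clock*, its partner, was at 41.9, 22.7 and 25.8 CPM against 5.54, 6.83 and 7.20 CPM. Both were lower in every GRLKO library than in any WT library. Among the repressors *Per1* was at 104, 82.1 and 90.0 CPM against 39.5, 39.2 and 40.5 CPM and *Cry1* at 55.7, 44.1 and 45.6 CPM against 20.2, 20.2 and 22.8 CPM. *Per3* was at 29.4, 43.9 and 45.7 CPM against 75.8, 88.0 and 61.2 CPM. *Per1* and *Cry1* were lower and *Per3* higher in all 3 GRLKO libraries. *Nr1d1*, the repressor of *Arntl*, was at 16.5, 14.2 and 15.02 CPM in WT and 33.3, 40.2 and 39.5 CPM in GRLKO, higher in all 3 GRLKO libraries. *Cry2* (79.9, 59.3 and 61.5 CPM against 61.5, 65.7 and 61.4 CPM) overlapped between the genotypes.

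These 6 members were called by edgeR, 6 of 9 tested against 15.3% of all genes. The log2 fold changes (GRLKO against WT) were -2.52 (SE 0.63, adjusted p = 0.0368) for *Arntl*, -2.22 (SE 0.25, adjusted p = 0.00199) for *Clock*, -1.22 (SE 0.11, adjusted p = 0.000829) for *Per1* and -1.21 (SE 0.12, adjusted p = 0.00118) for *Cry1*. They were 0.91 (SE 0.19, adjusted p = 0.0214) for *Per3* and 1.29 (SE 0.11, adjusted p = 0.000749) for *Nr1d1*. *Per2* (0.22, SE 0.11, adjusted p = 0.229), *Cry2* (-0.10, SE 0.13, adjusted p = 0.64) and *Nr1d2* (0.26, SE 0.10, adjusted p = 0.14) were not called, and *Npas2* did not pass the count filter. The median log2 fold change was -0.10 over the members tested and -0.00410 over all genes tested. The *Arntl* call was lost without any 1 of the 3 WT libraries or without GRLKO replicate 1 or 2 (log2 -2.78 to -2.06, adjusted p 0.0506 to 0.111) or with the replicate number as a block (log2 -2.68, adjusted p = 0.0681), and the *Per3* call without GRLKO replicate 1 or 2 (log2 0.78 to 0.90, adjusted p 0.0624 to 0.0675).

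Cell markers moved with this comparison. The summed hepatocyte list (7 of 7 genes with counts, *Alb* the most abundant) stood at 173251, 175364 and 179099.7 CPM in the WT libraries and 129061, 139405 and 120879.9 CPM in the GRLKO libraries. The Kupffer and myeloid list (8 of 8, *Clec4f* the most abundant, none at 0) stood at 53.6, 87.8 and 63.5 CPM against 149, 118 and 181 CPM. The sum of the hepatocyte list was thus lower and that of the Kupffer list higher in all 3 GRLKO libraries. *Alb* makes up much of the hepatocyte sum (medians over all libraries 74310 and 106184 CPM), so the sum does not speak for each marker. The endothelial list (6 of 6, *Clec4g* the most abundant) stood at 163, 149 and 180.0 CPM against 213, 199 and 222 CPM. The lymphocyte list (*Ptprc* the most abundant of 6 genes, *Nkg7* and *Trac* at 0 in WT) stood at 1.96, 3.56 and 2.49 CPM against 4.91, 3.84 and 6.34 CPM, and the cholangiocyte list (*Spp1* the most abundant of 5, *Epcam* at 0) at 26.4, 31.2 and 29.1 CPM against 31.5, 32.5 and 32.0 CPM. These too were higher in all 3 GRLKO libraries, and the part of these cells in the differences of the clock genes was not tested. The exocrine pancreas list (5 of 5) stood at 0.140, 0.558 and 479.8 CPM in WT and 0, 0.0565 and 0 CPM in GRLKO, where *Cpa1*, *Prss2*, *Pnlip* and *Cel* were at 0. Without WT replicate 3, the library with pancreas markers, the log2 fold changes were -2.32 for *Clock*, -1.25 for *Per1*, -1.26 for *Cry1*, 1.02 for *Per3* and 1.27 for *Nr1d1*, all still called, and -2.49 for *Arntl* (adjusted p = 0.0915).

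At ZT16 on caloric restriction the difference was narrower. *Per1* was at 36.5, 27.7 and 20.6 CPM in WT and 12.4, 13.2 and 8.52 CPM in GRLKO. *Npas2* was at 5.77, 7.45 and 6.93 CPM against 2.37, 1.84 and 1.88 CPM, with every GRLKO library under every WT library for both. By edgeR 2 of 10 members were called (4.54% of all genes tested): *Npas2* at -1.72 (SE 0.20, adjusted p = 0.0044) and *Per1* at -1.31 (SE 0.24, adjusted p = 0.0252). The other members ran from log2 -0.52 (*Arntl*) to 0.75 (*Nr1d1*). *Arntl*, at 25.6, 33.8 and 23.5 CPM against 18.2, 20.3 and 19.4 CPM, and *Per2*, at 113, 108 and 121 CPM against 72.3, 102 and 83.7 CPM, did not overlap between the genotypes either. Their adjusted p were 0.101 and 0.127, and DESeq2 called both. The *Per1* call was lost without any 1 library other than WT replicate 3 (log2 -1.44 to -1.08, adjusted p 0.0569 to 0.0791). The hepatocyte list (7 of 7 genes) stood at 138784, 144411 and 136983 CPM against 128422, 105601 and 131440.1 CPM at ZT16 and the neutrophil list (5 genes, *S100a9* the most abundant, *Ly6g* at 0 in both genotypes and *Mmp8* in WT) at 0.371, 0.213 and 0.822 CPM against 0.867, 0.952 and 1.06 CPM, without overlap, and their part was not tested.

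At the other 4 times on caloric restriction no member was called by edgeR. At ZT0 0 of 10 were called (0.502% of all genes tested), 0 had an unadjusted p under 0.05 (1606 of 12140 genes had), and DESeq2 called 0. The log2 fold changes ran from -0.55 (*Per1*) to 0.36 (*Per3*). At ZT4 0 of 10 were called (0.69%), with 1 called by DESeq2 (*Per1*). There 2 members (*Npas2* and *Per1*) and 1755 of 12025 genes were under an unadjusted p of 0.05. At ZT8 0 of 8 were called (2.55%), with 1 called by DESeq2 (*Per1*). *Per1* was also the 1 member under an unadjusted p of 0.05, as were 2092 of 12070 genes. *Arntl* and *Npas2* did not pass the filter there. At ZT20 0 of 10 were called (1.47%), with 1 called by DESeq2 (*Per1*). There 5 members and 2340 of 12076 genes were under an unadjusted p of 0.05. *Per1* was at 40.1, 36.4 and 26.7 CPM in WT against 19.1, 7.29 and 11.8 CPM in GRLKO at ZT4, 74.0, 113 and 78.7 CPM against 58.2, 43.6 and 58.6 CPM at ZT8, and 18.4, 15.9 and 8.99 CPM against 8.92, 3.18 and 3.78 CPM at ZT20. The log2 fold changes of the other members tested ran from -0.31 (*Per3*) to 1.15 (*Npas2*) at ZT4, from -0.52 (*Cry1*) to 0.32 (*Nr1d1*) at ZT8 and from -0.50 (*Npas2*) to 0.98 (*Nr1d1*) at ZT20. For *Per1*, at these 3 times every GRLKO library was under every WT library, and the log2 fold changes were -1.43 (SE 0.33, adjusted p = 0.129), -0.73 (SE 0.19, adjusted p = 0.108) and -1.40 (SE 0.43, adjusted p = 0.156). Without GRLKO replicate 1 *Per1* was called at ZT20 (log2 -2.02, adjusted p = 0.0488). That library had the highest stellate and lymphocyte sums of the 90 libraries. At ZT20 the stellate list (6 of 6, *Dcn* the most abundant) stood at 296, 267 and 299.6 CPM in WT and 451, 269.7 and 243 CPM in GRLKO, and the lymphocyte list (6 genes, *Ptprc* the most abundant, *Trac* at 0 in WT) at 9.18, 7.71 and 4.78 CPM against 24.2, 7.59 and 6.12 CPM. Their part was not tested.

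Other marker lists also moved without overlap at these times. At ZT0 the hepatocyte list (7 of 7 genes) stood at 122056, 123873 and 125952 CPM in WT and 109541, 112047 and 106766 CPM in GRLKO, and the neutrophil list (5 genes, *S100a9* the most abundant, *Ly6g* at 0 in GRLKO) at 1.29, 0.805 and 1.21 CPM against 1.95, 3.52 and 1.66 CPM. The exocrine pancreas list (5 genes, all but *Cela1* at 0) was at 0.191, 0.107 and 0 CPM against 0.211, 0.220 and 0.221 CPM there. The sum of the hepatocyte list was lower and the other lists were higher in all 3 GRLKO libraries. At ZT4 the endothelial list (6 of 6 genes, *Clec4g* the most abundant) stood at 160.3, 153 and 177 CPM in WT and 232, 239 and 203 CPM in GRLKO, and at ZT8 at 154, 165 and 158 CPM against 191, 196 and 206 CPM. It was higher in all 3 GRLKO libraries at both times. At ZT8 the hepatocyte list (7 of 7, *Alb* the most abundant) stood at 145411, 120749.6 and 118643 CPM against 115563, 111924 and 113255 CPM, lower in GRLKO. The adipocyte list (4 genes, *Plin1* and *Lep* at 0 in both genotypes and *Cfd*, the most abundant over all libraries, in WT) stood at 0, 0 and 0 CPM against 2.85, 5.39 and 0.664 CPM at ZT0, at 0.0567, 0 and 0 CPM against 0.333, 0.319 and 1.27 CPM at ZT8 and at 0, 0 and 0 CPM against 1.49, 0.0579 and 3.34 CPM at ZT20, higher in GRLKO. With *Plin1* and *Lep* at 0, a higher sum of this list does not by itself show adipocytes. The part of these lists in the differences of the clock genes was not tested.

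On the control diet *Per1* was lower in GRLKO mice at ZT12 and at ZT16. At ZT12 it was at 70.8, 63.6, 57.9 and 92.9 CPM in the 4 WT libraries and 48.6, 28.7, 31.3 and 30.2 CPM in the 4 GRLKO libraries. At ZT16 it was at 27.8, 38.4, 38.2 and 31.9 CPM in WT and 11.5, 14.4 and 13.3 CPM in GRLKO. The genotypes did not overlap at either time. *Cry1* at ZT16 was at 32.4, 34.9, 29.8 and 33.6 CPM against 23.9, 22.0 and 19.1 CPM, and *Per3* at 36.9, 41.7, 37.6 and 36.4 CPM against 54.5, 61.0 and 51.7 CPM. *Cry1* was lower and *Per3* higher in all 3 GRLKO libraries than in any WT library.

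At ZT12 edgeR called 1 of 7 members tested (2.08% of all genes tested), *Per1* with a log2 fold change of -1.04 (SE 0.20, adjusted p = 0.0332). *Arntl*, *Clock* and *Npas2* did not pass the count filter, and 4 members and 1444 of 11428 genes had an unadjusted p under 0.05. The other members tested ran from log2 -0.39 (*Cry1*) to 0.72 (*Nr1d1*). At ZT16 it called 3 of 9 (1.98%): *Per1* at -1.39 (SE 0.15, adjusted p = 0.00587), *Cry1* at -0.59 (SE 0.10, adjusted p = 0.026) and *Per3* at 0.55 (SE 0.08, adjusted p = 0.0197). *Npas2* did not pass the filter, and the other members ran from log2 -0.66 (*Clock*) to 0.17 (*Nr1d1*). The median log2 fold change was -0.20 over the members tested and -0.00159 over all genes tested. The *Per1* call at ZT16 was kept without any 1 library. At ZT12 it was lost without any 1 library other than WT replicate 3 and GRLKO replicate 1 (log2 -1.09 to -0.90, adjusted p 0.0669 to 0.0957) or with the replicate number as a block (log2 -1.06, adjusted p = 0.0677), and *Nr1d1* was called without WT replicate 1 (log2 0.91, adjusted p = 0.0486). At ZT16 the *Per3* call was lost without WT replicate 1 or 4 or GRLKO replicate 1 or 2 (log2 0.48 to 0.56, adjusted p 0.0506 to 0.0623), with 1 fit of all libraries of the diet (log2 0.55, adjusted p = 0.136) or with the replicate number as a block (log2 0.52, adjusted p = 0.0882). The *Cry1* call was lost without WT replicate 1, 2 or 4 or GRLKO replicate 2 or 3 (log2 -0.61 to -0.52, adjusted p 0.0527 to 0.085) or with that block (log2 -0.58, adjusted p = 0.115). WT replicate 2 at ZT16 is the library with pancreas markers (0.305, 223, 0.825 and 0.143 CPM in the 4 WT libraries and 0.340, 0.238 and 0.313 CPM in GRLKO, 5 of 5 genes with counts). Without it the log2 fold changes were -1.32 for *Per1*, 0.59 for *Per3* and -0.56 for *Cry1*. At ZT16 the hepatocyte list (7 of 7) stood at 101489, 103382, 98722 and 92802 CPM in WT and 91412, 80572 and 89730.4 CPM in GRLKO, and the endothelial list (6 of 6) at 105, 109, 105 and 105 CPM against 103, 79.6 and 98.0 CPM. Both were lower in all 3 GRLKO libraries, and their part was not tested. The adipocyte list (4 genes, *Cfd* the most abundant, *Plin1* at 0 in both genotypes and *Lep* in GRLKO) stood at 1.16, 0.382, 0 and 0 CPM in WT and 5.04, 3.18 and 2.73 CPM in GRLKO at ZT16, and at 0.282, 0.0752, 0 and 0 CPM against 2.54, 2.997, 35.2 and 6.80 CPM at ZT12.

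At ZT0 on the control diet *Cry2* was at 18.6, 20.9 and 20.4 CPM in WT and 33.5, 32.2 and 32.5 CPM in GRLKO, higher in all 3 GRLKO libraries. It was the 1 of 10 members called (0.536% of all genes tested), with a log2 fold change of 0.71 (SE 0.08, adjusted p = 0.0337), and the call was lost without any 1 library other than WT replicate 3 (log2 0.67 to 0.74, adjusted p 0.0901 to 0.145) or with the replicate number as a block (log2 0.71, adjusted p = 0.119). *Nr1d1* was at 3.74, 3.14 and 4.69 CPM in WT and 23.2, 2.98 and 22.6 CPM in GRLKO. GRLKO replicate 2 stands apart there from the other GRLKO libraries, also for *Per2* (8.69, 39.6 and 12.7 CPM). The other members ran from log2 -1.27 (*Clock*) to 0.60 (*Per3*). Without GRLKO replicate 2 the log2 fold change of *Nr1d1* was 2.57 (adjusted p = 0.0201), and with it 2.07 (SE 0.67, adjusted p = 0.227). With all libraries kept, *Nr1d1* was called by DESeq2 (log2 2.07, adjusted p = 0.0144) and with 1 fit of all libraries of the diet (log2 2.08, adjusted p = 0.0036). At ZT4, ZT8 and ZT20 edgeR called 0 of 10, 0 of 9 and 0 of 10 members (0.195%, 1.43% and 0.42% of all genes tested), with 3, 1 and 2 members under an unadjusted p of 0.05, and DESeq2 called 0, 1 (*Per1*) and 0. By edgeR 1152 of 11817, 1301 of 11582 and 1346 of 11906 genes were under an unadjusted p of 0.05 at these times. Over the members tested the log2 fold changes ran from -0.86 (*Per2*) to 0.74 (*Per3*) at ZT4, from -0.75 (*Per1*) to 1.40 (*Arntl*) at ZT8 and from -1.25 (*Per1*) to 0.51 (*Per3*) at ZT20. The adipocyte list summed to 45.2, 20.8 and 18.5 CPM in these GRLKO libraries at ZT0 and to 0.9796, 0 and 0 CPM in WT (*Cfd* the most abundant, with *Adipoq*, *Plin1* and *Lep* at 0 in GRLKO). At ZT4, ZT8 and ZT20 that list was at 15.9, 13.6 and 6.62 CPM, 19.3, 9.17, 44.5 and 21.0 CPM and 3.13, 49.0 and 6.22 CPM in GRLKO against 0, 0 and 0.137 CPM, 0, 0, 0 and 1.54 CPM and 0, 1.10, 0.229 and 0 CPM in WT, higher in every GRLKO library. At ZT4 the hepatocyte list (7 of 7 genes) stood at 101673, 102524 and 104475 CPM in WT and 81350.0, 78106 and 87233 CPM in GRLKO, and the cholangiocyte list (5 genes, *Spp1* the most abundant, *Epcam* at 0) at 39.4, 45.7 and 46.1 CPM against 33.2, 36.0 and 28.3 CPM. Both were lower in every GRLKO library, and their part was not tested.

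Set side by side over the 12 comparisons of the genotypes, which share no libraries, some members mostly had 1 direction and others both. Directions were counted for the members only. The share of all genes that hold 1 direction as often is not known here. *Per1* was lower in GRLKO in 11 of 12 (4 called), with log2 fold changes from -1.43 to 0.18 and a median of -1.13. The exception was ZT0 on the control diet, near its daily low. *Cry1* was lower in 10 of 12 (2 called), from -1.21 to 0.08. *Nr1d1* was higher in 12 of 12 (1 called), from 0.02 to 2.07, and *Per3* in 11 of 12 (2 called), from -0.31 to 0.91. *Nr1d2* was higher in 9 of 12 (0 called) and *Clock* lower in 8 of 11 tested (1 called). *Per2* was lower in 6 and higher in 6 (0 called), *Cry2* lower in 5 and higher in 7 (1 called), *Arntl* lower in 6 and higher in 4 of 10 tested (1 called), and *Npas2* lower in 3 and higher in 4 of 7 tested (1 called). Averaged over the day, *Per1* stood at 4.68 log2 CPM in WT and 3.56 in GRLKO on caloric restriction, and at 3.95 and 3.16 on the control diet. Its fitted amplitude was 2.25 (SE 0.27) in WT and 2.26 (SE 0.20) in GRLKO on caloric restriction, and 2.34 (SE 0.24) and 1.90 (SE 0.25) on the control diet. The amplitudes were not tested apart from the peaks.

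In GRLKO mice the fitted peaks ran from *Nr1d1* first to *Npas2* last on both diets, as in WT. The fitted peak differed between the genotypes (GRLKO minus WT, positive meaning later) by a median of 0.457 h on caloric restriction, with 7 members later and 3 earlier. The median was -0.152 h on the control diet, with 4 later and 6 earlier. These counts too have no share over all genes beside them. On caloric restriction the activators had the largest differences, 2.29 h (SE 1.49) for *Clock*, 1.08 h (SE 0.754) for *Arntl* and 1.00 h (SE 0.349) for *Npas2*, followed by 0.891 h (SE 0.455) for *Cry1*. By limma a rhythm difference between the genotypes was called for 0 of 10 members on caloric restriction (0.659% of all genes tested), and edgeR on counts called 1. By limma 1 member (*Npas2*, adjusted p = 0.0822) and 1575 of 13041 genes had an unadjusted p under 0.05 there. On the control diet limma called 0 of 10 (0.366%), with 0 called by edgeR on counts. By limma 1 member (*Cry2*, adjusted p = 0.299) and 1261 of 12834 genes had an unadjusted p under 0.05 there. *Npas2* on caloric restriction was called without GRLKO replicate 3 at ZT4 (0.0435) or WT replicate 3 at ZT8 (0.0405). With time as a factor in place of the cosine, limma called *Npas2* (adjusted p = 0.0003) and *Clock* (adjusted p = 0.0283) on caloric restriction (5.34% of all genes tested) and *Cry2* (adjusted p = 0.000769) on the control diet (0.693%).

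Whether the genotype effect depends on diet was tested by the interaction, across tables. At ZT12 the effect of the genotype (log2, GRLKO against WT) on *Cry1* was -1.21 on caloric restriction and -0.39 on the control diet, an interaction of -0.81 (SE 0.23, adjusted p = 0.115). For *Nr1d1* the effect was 1.29 against 0.72, an interaction of 0.58 (SE 0.27, adjusted p = 0.35), and for *Per1* -1.22 against -1.04, an interaction of -0.16 (SE 0.26, adjusted p = 0.842). By edgeR 0 members had an interaction called at any time: 0 of 10 at ZT0, ZT4, ZT16 and ZT20 (background 0%, 0%, 0.234% and 0% of all genes tested), 0 of 9 at ZT8 (0.081%) and 0 of 9 at ZT12 (1.01%). From ZT0 to ZT20 the members under an unadjusted p of 0.05 numbered 1, 1, 0, 3, 2 and 3. The genes under it were 1266 of 12455, 746 of 12362, 1043 of 12345, 1742 of 12225, 1306 of 12385 and 878 of 12599. DESeq2 called 1 (*Cry2*), 0, 0, 1 (*Cry1*), 1 (*Cry1*) and 0 members. By limma a genotype by diet difference in rhythm was called for 0 of 10 (0.0224%), and for 0 by edgeR on counts. By limma 1 member (*Npas2*) and 1222 of 13376 genes had an unadjusted p under 0.05. With time as a factor it was called for *Npas2* (adjusted p = 0.00522; 0.897% of all genes tested). By edgeR, the members called at ZT12 on caloric restriction only are therefore not shown to differ from the control diet; by DESeq2 the interaction of *Cry1* there was called (log2 -0.81, adjusted p = 0.0348).

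The CORT experiment asks how extra glucocorticoid acts on the liver of WT mice at ZT12. Over the 10 members its 3 control libraries lay nearest to the WT control-diet means of ZT16, ZT16 and ZT20, while the 3 controls of the diet comparison lay nearest to ZT8, ZT12 and ZT8. The CORT libraries lay nearest to ZT8, ZT16 and ZT8. The limits given above for this distance hold here too. Control replicate 3 lay at 3.20 from ZT20 and 3.62 from ZT16, and CORT replicate 1 at 4.40 from ZT8 and 4.55 from ZT12. *Arntl*, for example, was at 10.1, 5.34 and 14.6 CPM in the CORT controls, at 0.874, 0.993 and 0 CPM in the controls of the diet comparison and at 0, 0.376, 1.35 and 0.960 CPM in the WT control-diet libraries at ZT12 in the time series. What set the controls apart was not tested.

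*Per1* was at 24.3, 17.7 and 13.7 CPM in the 3 controls and 73.0, 75.0 and 81.4 CPM in the 3 CORT libraries. *Cry2* was at 45.7, 38.2 and 39.5 CPM against 73.5, 67.0 and 56.9 CPM. Both were higher in every CORT library. The CORT values of *Per1* lay inside the range of the WT control-diet libraries at ZT12 in the time series (57.9 to 92.9 CPM). By edgeR 2 of 9 members were called (8.11% of all genes tested): on the log2 scale *Per1* rose by 2.04 (SE 0.19, adjusted p = 0.00247) and *Cry2* by 0.68 (SE 0.12, adjusted p = 0.0215). *Nr1d2*, at 49.5, 36.4 and 16.2 CPM against 93.2, 73.4 and 81.3 CPM, had a log2 difference of 1.28 (SE 0.35, adjusted p = 0.0688). For *Cry1*, at 26.0, 29.4 and 37.4 CPM against 10.4, 22.3 and 9.85 CPM, it was -1.12 (SE 0.33, adjusted p = 0.0818). Neither was called by edgeR, although neither overlapped between the groups. DESeq2 called both (*Nr1d2* log2 1.29, adjusted p = 0.000986, and *Cry1* log2 -1.11, adjusted p = 0.00745) and also *Per2* (log2 -0.76, adjusted p = 0.0400). By edgeR 6 members had an unadjusted p under 0.05, as had 2997 of 11523 genes tested. The other members tested, *Arntl*, *Clock*, *Per2*, *Per3* and *Nr1d1*, ran from log2 -2.11 (*Arntl*) to 0.93 (*Nr1d1*), and *Npas2* did not pass the filter. *Arntl* was at 0.455, 5.67 and 0.684 CPM with CORT, where replicate 2 stands with the controls. The median log2 fold change was -0.14 over the members tested and -0.00668 over all genes tested. The *Cry2* call was lost without control replicate 2 or 3 or CORT replicate 1 (log2 0.59 to 0.65, adjusted p 0.0658 to 0.0972), and *Nr1d2* was called without control replicate 3 (log2 0.94, adjusted p = 0.0425). Without CORT replicate 2, *Arntl* (log2 -4.11, adjusted p = 0.0112), *Clock* (log2 -1.22, adjusted p = 0.00814) and *Cry1* (log2 -1.62, adjusted p = 0.0064) were called too.

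In 4 of 10 marker lists the CORT libraries and their controls did not overlap. The Kupffer and myeloid list (8 of 8 genes with counts, *Clec4f* the most abundant) stood at 80.4, 103 and 109.8 CPM in the controls and 114, 164 and 140.0 CPM with CORT. The neutrophil list (*S100a9* the most abundant of 5 genes, *Ly6g* at 0 in both groups) stood at 0.0719, 0.684 and 0.615 CPM against 2.43, 2.37 and 1.57 CPM. Both were higher with CORT, and the next lists lower. The endothelial list (6 of 6, *Clec4g* the most abundant) stood at 95.2, 102 and 119.8 CPM against 77.1, 85.2 and 92.5 CPM and the erythrocyte list (6 of 6, *Hbb-bs* the most abundant) at 699, 632 and 785 CPM against 327, 558 and 301 CPM. The part of these cells in the differences of the clock genes was not tested.

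**Figure D3:**
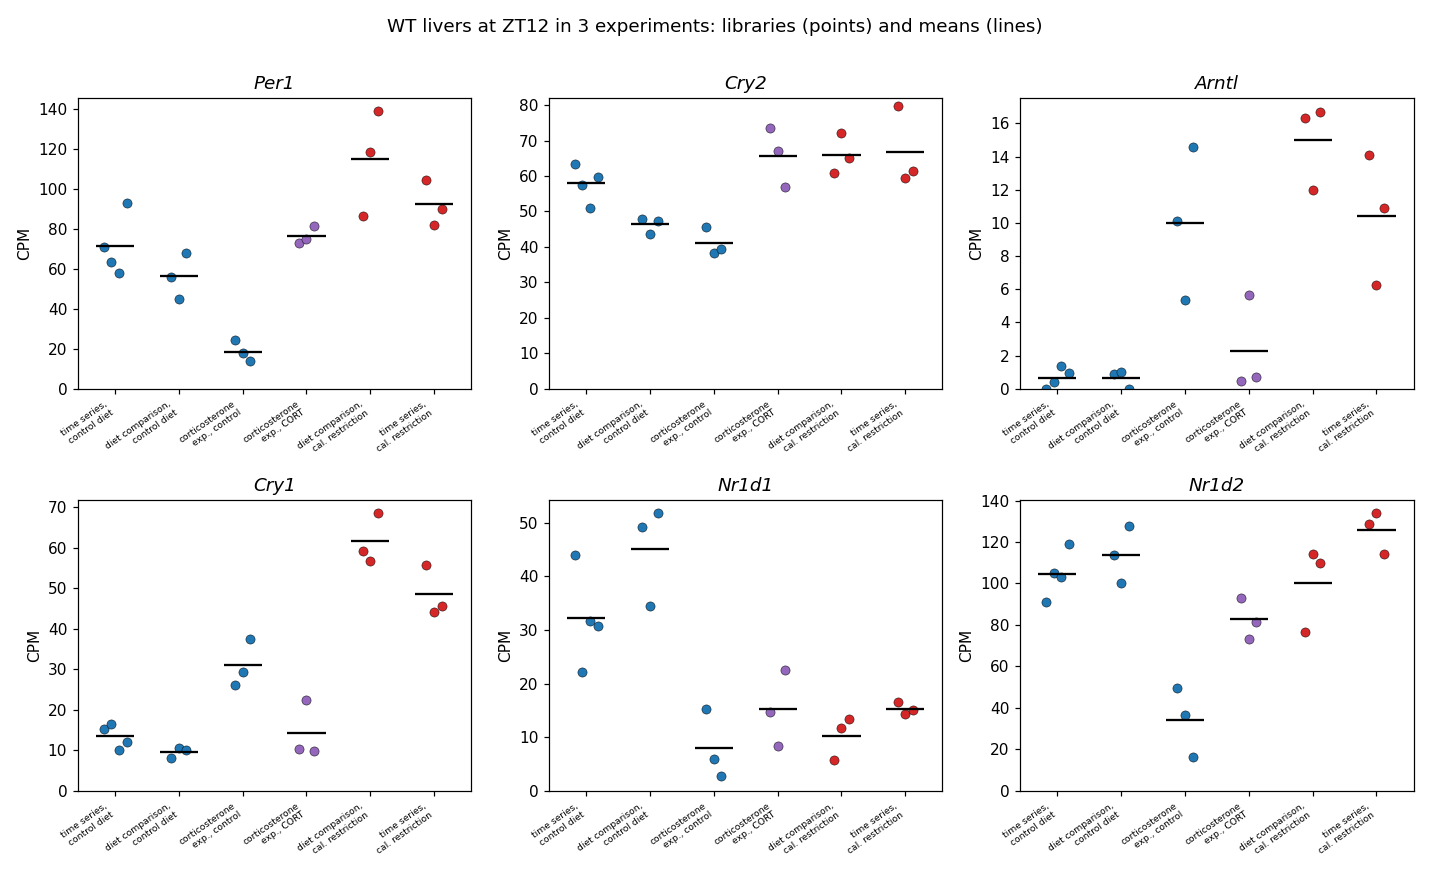
Levels of 6 core clock genes (CPM, linear axes from 0) in the WT libraries at ZT12 of the time series, the diet comparison and the CORT experiment, with points for single libraries and a line at each group mean. The CORT controls stand lower in *Per1* and higher in *Arntl* and *Cry1* than the other controls, and the libraries on caloric restriction stand higher in *Cry1* than all others.

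The 4 comparisons at ZT12 in which *Fkbp5* was called can be set side by side. The log2 difference of *Fkbp5* was 2.63 for CORT, 2.36 for caloric restriction in the diet comparison, -2.84 for GRLKO on caloric restriction and -2.29 for GRLKO on the control diet. That of *Per1* was 2.04, 1.02, -1.22 and -1.04 in the same order, all called by edgeR and of the same sign as *Fkbp5*. Of these, the call for the diet was not made between the WT ZT12 libraries of the time series (log2 0.35, adjusted p = 0.121), and the call on the control diet was lost in 6 of 8 fits without 1 library (log2 -1.09 to -0.90, adjusted p 0.0669 to 0.0957). For *Cry1* the log2 differences were -1.12 (not called), 2.67, -1.21 and -0.39 (not called). For *Nr1d1* they were 0.93 (not called), -2.13, 1.29 and 0.72 (not called). The CORT values rest on controls that stood lower in *Per1* and higher in *Arntl* and *Cry1* than the other WT controls at ZT12. Those CORT controls lay nearest to the control-diet means of ZT16, ZT16 and ZT20, and what set them apart was not tested.

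Beyond the 10 members, 24 other genes of the clock and its outputs were listed. In the diet comparison at ZT12, 8 of 22 tested rose and 8 fell (called: 47.1% of all genes tested). *Bhlhe41*, a repressor of the loop, had a log2 difference of -4.08 (adjusted p = 0.00021) and *Dbp*, an activator of clock output genes, of -3.22 (adjusted p = 5.05e-05). *Nfil3*, the repressor that competes with *Dbp*, stood at 2.12 (adjusted p = 0.000263) and *Rora*, an activator of *Arntl*, at 1.20 (adjusted p = 0.0003). Between the genotypes on caloric restriction at ZT12, 3 of 22 rose and 3 fell (15.3% of all genes). *Ciart*, a repressor of the CLOCK pair, stood at -1.95 (adjusted p = 0.000428), *Dbp* at 1.71 (adjusted p = 0.00472) and *Usp2* at -0.77 (adjusted p = 0.00199). At the other times on caloric restriction 0 of 19 were called at ZT0, 0 of 22 at ZT4, 1 of 22 at ZT8 (*Ciart*, log2 -0.63, adjusted p = 0.0334), 1 of 22 at ZT16 (*Ciart*, log2 -1.39, adjusted p = 0.0077) and 1 of 21 at ZT20 (*Usp2*, log2 -1.16, adjusted p = 0.0234). On the control diet 2 of 21 were called at ZT12 (*Ciart*, log2 -0.93, adjusted p = 0.00294, and *Usp2*, log2 -0.66, adjusted p = 0.00758) and 1 of 21 at ZT16 (*Usp2*, log2 -0.51, adjusted p = 0.0384). These were all lower in GRLKO, at shares of all genes given above for the same comparisons, and 0 of 18 to 21 were called at ZT0, ZT4, ZT8 and ZT20 on that diet. With CORT 2 of 21 rose (8.11% of all genes called), *Ciart* at 2.94 (adjusted p = 0.0187) and *Usp2* at 1.501 (adjusted p = 0.0423). The interaction of genotype and diet at ZT12 was called for 2 of 22 (1.01% of all genes), *Ciart* at -1.01 (adjusted p = 0.0234) and *Tef* at 0.38 (adjusted p = 0.0484).

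The genes whose daily profile was most like that of a member were found by Pearson's r over the 24 time-series group means of log2 CPM, each series centred on its own mean, among 8624 genes other than the members with a mean of at least 5 CPM in both tables. For *Arntl* they were *Lgalsl* (0.968), *Chka* (0.961), *Fpgs* (0.960), *Leo1* (0.952) and *Lrfn3* (0.951). *Nr1d1* was most like *Soat2* (0.957), *Acp6* (0.945), *Wdtc1* (0.931), *Junb* (0.929) and *Setd1b* (0.927). The list for *Per2* was *Tspan4* (0.921), *2610021A01Rik* (0.918), *P4ha2* (0.913), *Marveld1* (0.910) and *Alpl* (0.909). The points share series and tables, and r is a description.

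Promoter sequences are shown for *Per1*, *Cry1*, *Nr1d1* and *Per3*, the members called between the genotypes at ZT12 on caloric restriction whose window before the start holds a motif of the loop. From RefSeq (GRCm38.p6) 13 windows were retrieved, from 250 bases before to 50 after a start, for 9 of 10 members. None was retrieved for *Per2*, which does not show that RefSeq holds no start for it. Both strands were searched for the E-box CACGTG, bound by the CLOCK pair, the weaker E′-box CACGTT, the RORE TAGGTCA, bound by REV-ERB and ROR proteins, the D-box TTATGTAA, bound by DBP and NFIL3, and the spaced GR motif ACANNNTGT. The E-box was in 2 member windows (*Per1*, *Cry1*) and in 7.15% of all 32817 promoters of this length. The E′-box was in 3 (*Cry1*, *Cry2*, *Nr1d1*) and 4.69%, and the RORE in 1 (*Arntl*, after the start) and 2.61%. The D-box was in 1 (*Per3*, in 2 places) and 0.935%, and the GR motif in 0 and 6.85%. A match is a description of these letters. The 250 bases before the start lie at chr11:69098699-69098948 on the plus strand, chr10:85185055-85185304 on the minus strand, chr11:98775378-98775627 on the minus strand and chr4:151044666-151044915 on the minus strand. They are printed 5′ to 3′ with the letters of a motif in capitals, an E-box in *Per1*, an E′-box and an E-box in *Cry1*, an E′-box in *Nr1d1* and the D-boxes in *Per3*.
Per1: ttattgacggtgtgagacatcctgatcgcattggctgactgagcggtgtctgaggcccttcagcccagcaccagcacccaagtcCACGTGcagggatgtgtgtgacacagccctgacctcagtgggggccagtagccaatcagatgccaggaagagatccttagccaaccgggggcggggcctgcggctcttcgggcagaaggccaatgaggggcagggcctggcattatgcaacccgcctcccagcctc
Cry1: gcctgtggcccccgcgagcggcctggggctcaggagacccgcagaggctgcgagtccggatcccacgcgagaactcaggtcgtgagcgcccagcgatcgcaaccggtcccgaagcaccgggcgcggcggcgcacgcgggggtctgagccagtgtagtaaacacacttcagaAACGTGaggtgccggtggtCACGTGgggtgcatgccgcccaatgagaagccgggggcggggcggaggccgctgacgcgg
Nr1d1: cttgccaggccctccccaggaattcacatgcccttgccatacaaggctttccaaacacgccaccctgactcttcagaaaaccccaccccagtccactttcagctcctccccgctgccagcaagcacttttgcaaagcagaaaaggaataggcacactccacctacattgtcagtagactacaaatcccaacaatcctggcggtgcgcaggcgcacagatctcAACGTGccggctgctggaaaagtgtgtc
Per3: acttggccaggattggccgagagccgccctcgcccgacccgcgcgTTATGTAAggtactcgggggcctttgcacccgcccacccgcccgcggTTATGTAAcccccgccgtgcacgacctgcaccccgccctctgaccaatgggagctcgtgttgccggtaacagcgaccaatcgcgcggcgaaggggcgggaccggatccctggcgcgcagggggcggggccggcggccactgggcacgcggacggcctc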

How the data were processed

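Bulk RNA-seq libraries of mouse liver were analysed from estimated counts per gene that the authors deposited, made, per the submitters' processing notes, with Salmon on mm10 (FastQC, MultiQC and DESeq2 are also named). Total estimated counts per library, which set the precision of each value, are given with the groups. Counts were rounded to whole numbers, and 27244 of 27654 gene identifiers matched a symbol; 6 columns of values normalized by the authors were not used. Each comparison of levels used only its own libraries, with a filter on low counts (filterByExpr, minimum count 10), TMM and edgeR's quasi-likelihood F test (edgeR 4.0.16); the interaction used the 4 groups of a time point from both tables. Adjusted p-values are Benjamini-Hochberg over all genes tested, and called means under 0.05. Rhythms were tested by an own implementation of JTK_CYCLE with a 24 h period on values after a variance stabilizing transformation (DESeq2 1.42.0), with an amplitude of at least 0.1. Rhythm differences were tested by limma 3.58.1 on cosine and sine terms, and peaks were fitted by least squares to log2 CPM with a prior count of 2; R was 4.3.3. The methods were tested on simulated data. All 10 members are counted in each comparison, and where levels of 2 groups were compared they are named or given by their range. Other clock genes were named only if called, at most 6 per comparison, and *Nr3c1* and *Fkbp5* as checks. Alternatives were DESeq2, other filters and normalizations, a replicate block, 1 fit of all libraries of a diet, other rhythm tests and each library left out in turn. The members and lists were chosen with earlier results of these data known.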

Additional observations from a re-analysis of the deposited data

Results flagged for a closer look

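Among 60 sets of 4 libraries (the 10 members in 6 groups), 7 had a library far from the other 3 by Dixon's test, which chance gives in about 1 in 20 groups. That rate is no guide for the *Arntl* and *Clock* sets below, where the other 3 libraries are all at 0 and any value above 0 passes, and the *Npas2* sets lie at very low levels. All values are CPM on the control diet. At ZT12 in GRLKO mice, *Arntl* was at 0.638 in replicate 3 and 0 in the others, *Clock* at 2.14 in replicate 2 and 0 in the others, *Npas2* at 0.337 in replicate 4, and *Per1* at 48.6 in replicate 1. At ZT12 in WT mice, *Clock* was at 2.93 in replicate 2 and 0 in the others, and *Npas2* at 0 in replicate 2. At ZT16 in WT mice, *Nr1d2* was at 63.6 in replicate 2, the library with pancreas markers.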

How the results depend on the processing

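Of 177 alternatives to the 29 counts of called members, where the fits without 1 library enter as their lowest and highest, 147 gave a count within 1.5 times that reported and 30 did not. The 22 level calls of members were lost in 9 of 108 fits under other settings and in 36 of 137 fits without 1 library; 11 calls were lost in none of these, and 0 turned direction. Counts over all genes moved more often, in 82 of 177. For each difference below the cause was not tested. DESeq2 called more members than edgeR between the genotypes on caloric restriction (1 at ZT4, 1 at ZT8, 4 at ZT16, 1 at ZT20) and on the control diet (2 at ZT0, 1 at ZT8, 3 at ZT12), 5 with CORT, and 1 interaction each at ZT0, ZT12 and ZT16. By DESeq2 the counts over all genes moved by more than 1.5 times in 17 of 20 comparisons. The shares given with the level comparisons are those of edgeR and are no background for DESeq2. With 1 fit of all libraries of a diet, 1 member was called at ZT4 and 1 at ZT20 on caloric restriction, and 2 at ZT0 and 1 at ZT20 on the control diet, and *Per3* at ZT16 on the control diet was not called (log2 0.55, adjusted p = 0.136). Under this fit the counts over all genes moved by more than 1.5 times in 12 of 12 comparisons. Those shares are no background for it either. With the replicate number as a block, 0 were called at ZT0, 0 at ZT12 and 1 at ZT16 on the control diet, and *Arntl* at ZT12 on caloric restriction had an adjusted p of 0.0681; samples share only a number, and in 0 of 14 comparisons did every pair of that number correlate above 0.1. Leaving out 1 library at a time, the genotype counts on caloric restriction went down to 1 at ZT16 and up to 1 at ZT20, those on the control diet down to 0 at ZT0, 0 at ZT12 and 1 at ZT16, and the CORT count ran from 1 to 5. For rhythm differences between the genotypes on caloric restriction, edgeR on counts called 1, time as a factor 2, and leaving out 1 library up to 1; time as a factor also called 1 on the control diet and 1 for genotype by diet. *Arntl*, *Clock* and *Npas2* did not pass the count filter between the genotypes at ZT12 on the control diet, so no difference was tested there.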
